A study of Mus musculus with 4 samples.

Results

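Apolipoproteins are the proteins of the lipid particles that carry cholesterol and triglyceride in blood, and 10 of their genes were followed here, chosen by gene symbol from the 21878 rows of the count tables. All 10 had a row in each of the 4 tables, and all 10 passed the filter on low counts. In liver, 8 of them (Apoa1, Apoa2, Apoa4, Apoa5, Apob, Apoc3, Apoh and Apom) are made by hepatocytes and serve as hepatocyte-only members, whereas the other 2, Apoe and Apoc1, are also made by macrophages. RNA came from C57BL/6 mouse liver cells sorted on magnetic columns (MACS) for CD24, a surface protein used to collect liver progenitor cells, and the labels call the cells hepatocytes. HACY mice, with 2 libraries, were injected 3 times a week over 6 weeks with a mix of Y-27632, which blocks protein kinases, A-83-01, which blocks TGF-beta type I receptors, and CHIR99021, which blocks glycogen synthase kinase 3. CCL4 mice, also with 2 libraries, were injected 2 times a week over 6 weeks with the hepatotoxin carbon tetrachloride, dissolved in olive oil and dosed at 2 ml/kg. Mice were 8 weeks old at injection by the treatment protocol, while the age label gives 6-8 weeks. The series has no untreated group, the labels do not make clear whether HACY mice also had carbon tetrachloride, and they give no source animals. All p-values therefore measure the spread between these samples only, which may be technical, and no difference can be assigned to either treatment alone.

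Apob is the structural protein of very low density lipoprotein (VLDL), which hepatocytes load with triglyceride in the endoplasmic reticulum and secrete. Apoa1 and Apoa2 form the scaffold of high density lipoprotein (HDL), which takes up cholesterol from cells through the transporter Abca1. Apoe and the small C apolipoproteins move between particles and set how fast lipases act on them and how liver receptors clear them. Macrophages secrete Apoe when loaded with cholesterol, under control of liver X receptors (LXR).

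The members lie at 6 places in the genome, given here on GRCm38, the assembly of mm10, from the GENCODE annotation. Apoa1 (chr9:46228580-46230466, plus strand), Apoc3 (chr9:46232933-46235636, minus strand), Apoa4 (chr9:46240696-46243459, plus strand) and Apoa5 (chr9:46268633-46271919, plus strand) form a cluster of 43.3 kb. Apoc1 (chr7:19689481-19692660) and Apoe (chr7:19696109-19699188) lie side by side on the minus strand. Apoa2 (chr1:171225054-171226379), Apob (chr12:7977648-8016835) and Apoh (chr11:108343354-108414396) are on the plus strand and Apom (chr17:35128997-35132050) is on the minus strand. All are protein-coding. Annotated genes on the opposite strand cover 69.8% of the exonic bases of Apoa4 (2 genes together), 20.8% of Apoa5 and 1.88% of Apoh. Since the strand setting of the counting is not given in the sources used here, the counts of these 3 are uncertain.

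The DNA just before the start sites of the members was searched for letters that liver transcription factors are known to bind. Promoter windows of RefSeq (GRCm38.p6), 250 bases before to 50 after each start, matched 8 of the 10 members, all but Apoc1 and Apoc3. Both strands were read for the core CAAAGNNCA of the DR1 element, bound by HNF4A and other nuclear receptors, for the nuclear receptor hexamer AGGTCA, which can overlap it, for the C/EBP letters TTGCNNAA, for TATAAA and for the HNF1 letters GTTAAT. The 250 upstream bases of 4 members are shown, 3 that hold the DR1 core and Apoa1, which holds none of the letters searched. Capitals mark matches to CAAAGNNCA, AGGTCA or TATAAA on either strand.
Apoa1, chr9:46228380-46228629, plus strand: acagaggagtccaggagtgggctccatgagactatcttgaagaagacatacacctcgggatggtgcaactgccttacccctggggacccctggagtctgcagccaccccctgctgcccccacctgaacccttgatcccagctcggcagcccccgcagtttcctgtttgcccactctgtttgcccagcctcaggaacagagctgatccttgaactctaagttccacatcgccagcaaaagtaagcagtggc
Apoa4, chr9:46240594-46240843, plus strand: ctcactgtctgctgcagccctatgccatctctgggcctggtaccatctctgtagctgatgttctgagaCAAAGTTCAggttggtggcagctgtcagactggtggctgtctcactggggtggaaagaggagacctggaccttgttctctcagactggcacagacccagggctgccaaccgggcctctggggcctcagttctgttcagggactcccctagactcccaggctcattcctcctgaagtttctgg
Apob, chr12:7977427-7977676, plus strand: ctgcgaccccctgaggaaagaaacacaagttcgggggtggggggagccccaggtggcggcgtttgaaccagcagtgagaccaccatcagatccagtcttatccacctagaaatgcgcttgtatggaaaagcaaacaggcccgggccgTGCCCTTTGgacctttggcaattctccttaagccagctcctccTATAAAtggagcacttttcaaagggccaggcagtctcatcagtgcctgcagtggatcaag
Apoh, chr11:108395047-108395296, plus strand: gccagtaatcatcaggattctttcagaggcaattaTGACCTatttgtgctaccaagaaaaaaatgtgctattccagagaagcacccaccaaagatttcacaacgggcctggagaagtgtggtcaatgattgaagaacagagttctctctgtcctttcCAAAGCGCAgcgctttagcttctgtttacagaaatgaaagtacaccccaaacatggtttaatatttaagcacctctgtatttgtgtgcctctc
The DR1 core began 182 bases before the start of Apoa4, 103 bases before that of Apob, where it reads on the opposite strand, and 93 bases before that of Apoh. It was thus in 3 of 8 member windows, against 5.49% of 32851 windows of the same length. TATAAA was in 3 member windows (Apoa2, Apoa5 and Apob), against 12.4% of all windows. AGGTCA was in 1 (Apoh), against 14% of all, TTGCNNAA in 1 (Apob), against 9.56%, and GTTAAT in 0, against 6.43%. The RefSeq starts used lie inside the GENCODE genes, by 50 bases for Apoa1, 148 for Apoa4, 29 for Apob and 51943 for Apoh, so the printed stretches lie partly, and that of Apoh wholly, within the annotated genes. These matches describe the letters in the windows and were not tested.

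Counts are given as CPM, scaled to library size, after TMM scaling, which also adjusts for RNA composition, and fold changes are HACY over CCL4. All 10 members were higher in both HACY libraries than in both CCL4 libraries, a separation that 30.7% of the 13428 genes tested showed in that direction and 30.1% showed in the other. At an adjusted p below 0.05 in edgeR's quasi-likelihood test (Benjamini-Hochberg over all 13428 genes), 5 members rose, namely Apoa1, Apoa4, Apoh, Apom and Apoe, and 0 fell, where 8.19% of all genes rose and 3.54% fell. No member was lower by DESeq2, which called 5.47% of genes lower. At an unadjusted edgeR p below 0.05 all 10 were higher and 0 lower, where 16.6% of all genes were higher and 13.6% lower. The median log2 fold change was 0.97 over the 10 members and -0.01 over all genes tested. In bulk libraries fewer cells of a type and less RNA per cell cannot be told apart.

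The number of members called higher moved with the fit, as did the share of all genes called. It was 6 with HACY replicate 1 left out (3.85% of all genes rose and 0.719% fell), 4 with HACY replicate 2 left out (4.86% and 0.782%), 6 with CCL4 replicate 1 left out (6.47% and 4.02%) and 7 with CCL4 replicate 2 left out (13.4% and 8.81%). DESeq2 called 9 members, all but Apoc3, where it called 10.1% of all genes higher. Scaling by upper quartiles (6.89% rose, 4.57% fell) or by library size alone (6.37% rose, 10.1% fell) left 5. RLE scaling (8.15% rose), limma-voom (7.64%) and a filter on mean CPM (8.21%) also gave 5, while no filter (7.41%) and a replicate block (6.65%) gave 7. On the authors' FPKM, limma called 5 with either pseudocount (5.86% and 5.95%) and 0 with no filter, a fit that called 0.00611% of genes.

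The members' combined share of all counts was 0.787% and 0.891% in HACY replicates 1 and 2, against 0.487% and 0.512% in CCL4 replicates 1 and 2. Exact Clopper-Pearson 95% intervals, which cover counting error only, were 0.783% to 0.791% and 0.887% to 0.895% in HACY, and 0.484% to 0.490% and 0.509% to 0.515% in CCL4. The mean share was 0.839% ± 0.0737 in HACY and 0.499% ± 0.0177 in CCL4 (SD, n = 2 each). Library totals lay between 18467299 and 19314219 counts.

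**Figure D1:**
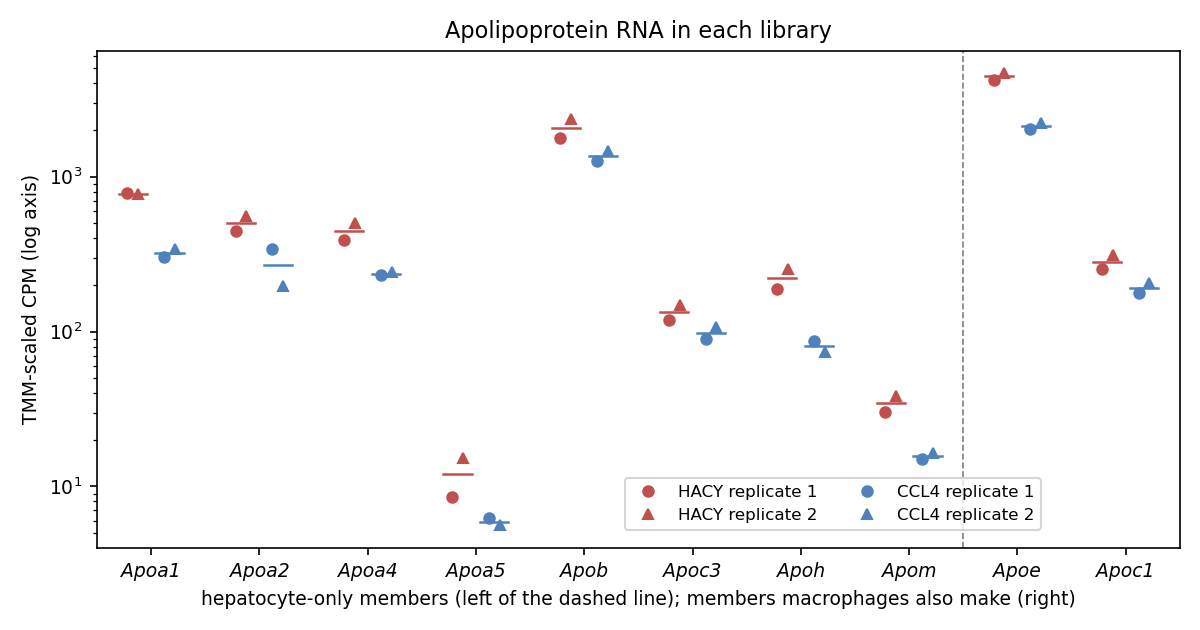
TMM-scaled CPM (log axis) of the 10 apolipoprotein genes in each library, with HACY points left of CCL4 points for every gene and lines at the group means (n = 2). For each gene both HACY points lie above both CCL4 points, and Apoe is the highest of the genes in every library.

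Among the 4 members described here as HDL proteins (Apoa1, Apoa2, Apom and Apoa4), Apoa1 had the largest difference. Apoa1, the main HDL protein and the activator of the cholesterol-esterifying enzyme Lcat, had 787.1 and 768.9 CPM in HACY libraries, against 305.0 and 339.8 CPM in CCL4 libraries. The HACY libraries differed from each other by less than the CCL4 libraries did, and the gap between groups was wider than either spread. The mean was 778 ± 12.9 CPM in HACY and 322 ± 24.6 CPM in CCL4 (SD, n = 2 each), a 2.41-fold difference (log2 1.27, SE 0.12, edgeR adjusted p = 0.00191). Apoa2, the other major HDL protein, had 447.8 and 560.2 CPM in HACY libraries, against 340.2 and 198.0 CPM in CCL4 libraries. Its CCL4 libraries stood far apart, and the difference (log2 0.91, SE 0.25) did not pass the test (edgeR adjusted p = 0.0614). Apoa2 was called by DESeq2 (adjusted p = 0.00165) and was past the edgeR threshold without CCL4 replicate 1 (log2 1.35, edgeR adjusted p = 0.0118), and its difference was 0.57 without CCL4 replicate 2.

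Apom, which carries sphingosine-1-phosphate in HDL, had 30.4 and 38.5 CPM in HACY libraries, against 15.1 and 16.6 CPM in CCL4 libraries (log2 1.12, SE 0.19, edgeR adjusted p = 0.0138). This call was lost without HACY replicate 2 (log2 0.94, edgeR adjusted p = 0.0905). Apoa4, a protein of HDL and chylomicrons, had 392.8 and 500.0 CPM in HACY libraries, against 230.6 and 241.5 CPM in CCL4 libraries. The CCL4 libraries lay close together and HACY replicate 2 was highest, and Apoa4 rose by 0.92 on the log2 scale (SE 0.15, edgeR adjusted p = 0.0104).

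Of the genes of triglyceride-rich particles (Apob, Apoc3 and Apoa5), none was called by the main edgeR test. Apob had 1769 and 2352 CPM in HACY libraries, against 1266 and 1455 CPM in CCL4 libraries (log2 0.60, SE 0.17, edgeR adjusted p = 0.0603). It was the second most counted member after Apoe, and HACY replicate 2 lay further from HACY replicate 1 than HACY replicate 1 lay from either CCL4 library. Apob was called by DESeq2 (adjusted p = 0.0103), with no filter (edgeR adjusted p = 0.0290) and with a replicate block (edgeR adjusted p = 0.0291). It also passed without HACY replicate 1 (log2 0.78, edgeR adjusted p = 0.0321), and its difference was 0.38 without HACY replicate 2. Apoc3, which slows triglyceride breakdown and remnant uptake, had 118.9 and 148.3 CPM in HACY libraries, against 90.1 and 107.0 CPM in CCL4 libraries. This was the smallest difference of the 10 members (log2 0.44, SE 0.16, edgeR adjusted p = 0.113). Apoc3 passed only without CCL4 replicate 2 (log2 0.57, edgeR adjusted p = 0.0472), and without HACY replicate 2 its difference was 0.27.

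Apoa5, which promotes lipoprotein lipase action on triglyceride, was the least counted member, with 156 and 271 counts (8.52 and 15.4 CPM) in HACY libraries, against 123 and 114 counts (6.22 and 5.62 CPM) in CCL4 libraries. HACY replicate 2 alone was well above the other 3 libraries. The difference of 1.01 on the log2 scale (SE 0.33) did not pass the edgeR test (adjusted p = 0.0901) but passed by DESeq2 (adjusted p = 0.0424), and it was 0.53 without HACY replicate 2.

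Apoh, also known as beta-2-glycoprotein I, binds phospholipid and circulates mostly free of lipoproteins. Apoh had 188.5 and 254.4 CPM in HACY libraries, against 87.0 and 73.4 CPM in CCL4 libraries. Both HACY libraries were more than double either CCL4 library, as they were for Apoa1, with means of 221 ± 46.6 CPM in HACY and 80.2 ± 9.60 CPM in CCL4 (SD, n = 2 each). The fold difference of the means, the largest of the 10 members, was 2.76 (log2 1.46, SE 0.18, edgeR adjusted p = 0.00390).

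Of the members that macrophages also make, Apoe was called by the main edgeR test and Apoc1 was not. Apoe, the ligand through which liver receptors clear remnants, had 4233 and 4647 CPM in HACY libraries, against 2027 and 2227 CPM in CCL4 libraries. The replicates of each group lay close together, and Apoe rose 2.09-fold (log2 1.06, SE 0.13, edgeR adjusted p = 0.00393). Apoc1, its neighbour, which hinders lipoprotein lipase and remnant uptake, had 252.1 and 313.0 CPM in HACY libraries, against 177.9 and 206.9 CPM in CCL4 libraries (log2 0.55, SE 0.15, edgeR adjusted p = 0.0561). Apoc1 was called by DESeq2 (adjusted p = 0.0187), with no filter (edgeR adjusted p = 0.0314) and with a replicate block (edgeR adjusted p = 0.0385). It was also past the threshold without CCL4 replicate 2 (log2 0.67, edgeR adjusted p = 0.0317). Within a library, log2 CPM of Apoe minus that of Apoc1 was 4.07 and 3.89 in HACY libraries, against 3.51 and 3.43 in CCL4 libraries, with no overlap between groups and no test. Apoe made up 51.4% and 48.4% of the members' counts in HACY libraries, against 44.6% and 45.7% in CCL4 libraries.

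Levels of different genes can be compared only per transcript length, for which the authors' FPKM served. In HACY libraries the order of mean FPKM was Apoe at 2016 ± 146, Apoa1 at 739 ± 32.6, Apoa2 at 503 ± 64.7, Apoc1 at 437 ± 57.8, Apoc3 at 192 ± 26.5, Apoa4 at 151 ± 24.3, Apob at 108 ± 18.5, Apoh at 108 ± 19.98, Apom at 34.8 ± 2.90 and Apoa5 at 3.76 ± 1.59 (SD, n = 2). The neighbours Apoa2 and Apoc1, and Apob and Apoh, overlapped between libraries in HACY. In CCL4 libraries the order was Apoe at 1065 ± 48.1, Apoa1 at 321 ± 17.5, Apoc1 at 320 ± 17.5, Apoa2 at 289 ± 112, Apoc3 at 148 ± 14.5, Apoa4 at 85.8 ± 3.12, Apob at 78.5 ± 10.8, Apoh at 43.9 ± 4.62, Apom at 17.2 ± 0.690 and Apoa5 at 1.93 ± 0.186 (SD, n = 2). There Apoa1, Apoc1 and Apoa2 overlapped in turn, as did Apoa4 and Apob. Apob ranks low in FPKM despite its high count because its transcript is very long.

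The question for these genes was whether hepatocyte-only members moved differently from Apoe and Apoc1. Such a difference was not visible beyond the spread between libraries. The mean log2 CPM of the 8 hepatocyte-only members minus that of Apoe and Apoc1 was -2.47 and -2.32 in HACY libraries, against -2.44 and -2.66 in CCL4 libraries. The groups overlap, the HACY minus CCL4 difference was 0.15 (SDs 0.11 in HACY and 0.16 in CCL4), and with summed counts in place of the mean of logs it was -0.22, the opposite sign. In such sums the most counted genes weigh most, and Apoe was 4233 of the 4485 CPM of Apoe and Apoc1 in HACY replicate 1. Set against Apoe alone, the hepatocyte-only mean was at -4.51 and -4.27 in HACY libraries and at -4.19 and -4.37 in CCL4 libraries, again overlapping. Set against Apoc1 alone, it was at -0.44 and -0.38 in HACY libraries and at -0.68 and -0.95 in CCL4 libraries, a difference of 0.41 with no overlap. These scores take no p, and 2 libraries against 2 cannot give an exact permutation p below 0.33.

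Within the hepatocyte-only members the size of the difference was uneven. Log2 CPM of Apoa1 minus that of Apob was -1.17 and -1.61 in HACY libraries, against -2.05 and -2.10 in CCL4 libraries, a difference of 0.69 between the groups' means (SDs 0.31 in HACY and 0.032 in CCL4, n = 2 each). Apoa1 and its cluster neighbour Apoc3 differed likewise, with log2 CPM of Apoa1 minus Apoc3 at 2.73 and 2.37 in HACY libraries, against 1.76 and 1.67 in CCL4 libraries. Both pairs were picked after the values were seen, so these are descriptions with no test.

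Other hepatocyte products and macrophage markers had larger median differences than these genes. Of 22 other secreted hepatocyte proteins, 19 rose and 0 fell (8.19% and 3.54% of all genes), with a median log2 fold change of 1.71. Albumin (Alb), the main plasma protein, had 24005 and 30358 CPM in HACY libraries, against 6971 and 5497 CPM in CCL4 libraries (log2 2.12, edgeR adjusted p = 0.00173). Fibrinogen chains Fga (2.49) and Fgb (2.11), Hrg (2.28) and Ahsg (2.27) had the smallest p-values of that list, each with a rise on the log2 scale given in brackets. Relative to that list, the hepatocyte-only mean was at -1.58 and -1.45 in HACY libraries, against -0.95 and -0.93 in CCL4 libraries. This is a difference of -0.58 with no overlap between groups, or -0.88 with summed counts. In HACY replicate 1 Alb was 24005 of the 37884 CPM of the summed list.

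Relative to 18 macrophage and Kupffer cell markers, log2 CPM of Apoe was at 4.85 and 5.38 in HACY libraries, against 5.70 and 5.78 in CCL4 libraries, and that of Apoc1 was at 0.78 and 1.49 in HACY libraries, against 2.19 and 2.35 in CCL4 libraries. The hepatocyte-only mean was at 0.34 and 1.11 in HACY libraries, against 1.51 and 1.41 in CCL4 libraries. So macrophage markers, like the other secreted proteins, stood further above CCL4 than the apolipoproteins did in these libraries.

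**Figure D2:**
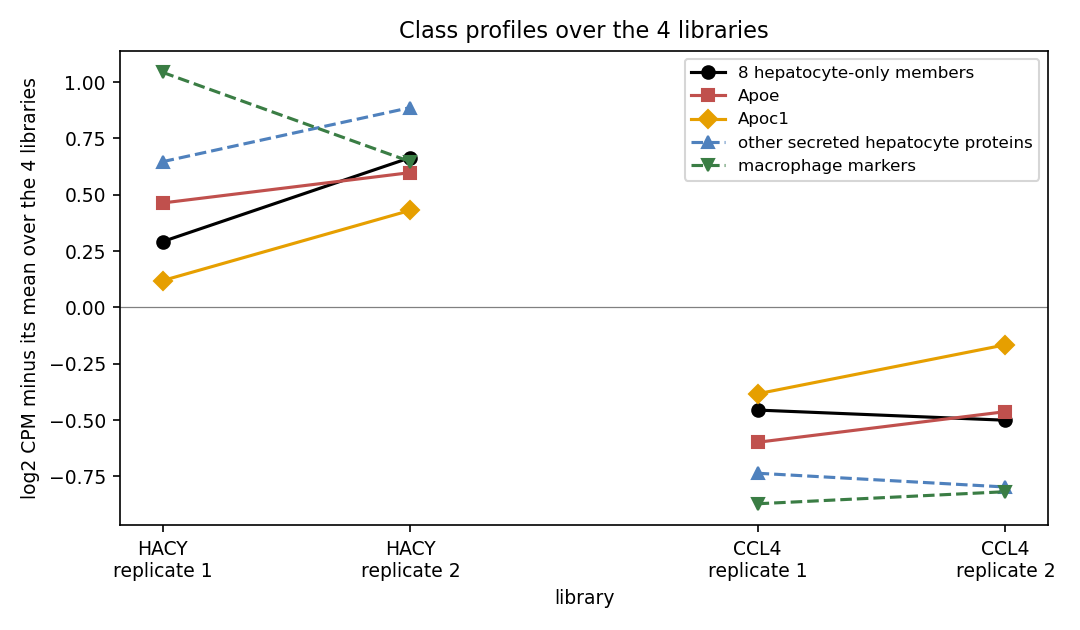
Log2 CPM of the hepatocyte-only mean, Apoe, Apoc1, the other secreted hepatocyte proteins and the macrophage markers in each library, relative to its own mean over the 4 libraries, HACY left of CCL4. The secreted proteins lie further above 0 than the apolipoproteins in both HACY libraries, the macrophage markers do so in HACY replicate 1, and the macrophage markers alone are lower in HACY replicate 2 than in HACY replicate 1.

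Macrophage and hepatocyte markers were higher in HACY libraries along with the apolipoproteins, and their part in the result was not tested. Of the 18 macrophage markers 16 rose and 0 fell (8.19% and 3.54% of all genes), with a median log2 fold change of 1.57. None was at 0 counts in every library, and their summed level was 5255 and 3797 CPM in HACY libraries, against 1480 and 1999 CPM in CCL4 libraries. Adgre1, which encodes the macrophage surface protein F4/80, had 131 and 93.5 CPM in HACY libraries, against 18.96 and 22.7 CPM in CCL4 libraries (log2 2.43, edgeR adjusted p = 0.00153). Hepatocyte markers rose in 8 of 10 and fell in 0 (8.19% and 3.54% of all genes), with a median of 1.51, and fewer were called without HACY replicate 2. Their summed level was 25738 and 32754 CPM in HACY libraries, against 7728 and 6292 CPM in CCL4 libraries. Most of this sum was Alb, at 24005 and 30358 CPM in HACY libraries and 6971 and 5497 CPM in CCL4 libraries. Markers of scar or lipid-associated macrophages rose in 4 of 7 and fell in 0 (8.19% and 3.54% of all genes). Fewer rose without CCL4 replicate 1 and more without CCL4 replicate 2. Endothelial markers rose in 3 of 8 and fell in 1 (8.19% and 3.54% of all genes). Fewer rose without HACY replicate 1 or CCL4 replicate 1, and more without CCL4 replicate 2. The fall was still called if CCL4 replicate 1 was left out but not for any other library. The share of all genes called also moved with the library left out, as given above.

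Stellate cell and fibroblast markers had 0 calls of 11 tested, where 11.7% of all genes were called in either direction. Some were called higher without CCL4 replicate 2 and some lower without CCL4 replicate 1. Their summed levels were 768 and 644 CPM in HACY libraries, against 392 and 894 CPM in CCL4 libraries. Neutrophil markers had 0 calls of 8 tested (11.7% of all genes), again with some lower without CCL4 replicate 1 and some higher without CCL4 replicate 2. They summed to 58.0 and 54.8 CPM in HACY libraries, against 40.2 and 255 CPM in CCL4 libraries. CCL4 replicate 2 thus stood apart from CCL4 replicate 1 in both lists. Biliary and progenitor markers had 0 higher and 1 lower of 9 tested (8.19% and 3.54% of all genes). These calls changed without HACY replicate 1 or either CCL4 library. Cd24a, which encodes the protein used for sorting, had 21.9 and 19.4 CPM in HACY libraries, against 20.7 and 38.0 CPM in CCL4 libraries (edgeR adjusted p = 0.279). B cell markers had 0 calls of 5 tested, T and NK cell markers 0 of 1 tested, and red cell precursor markers 0 of 2 tested, though not without CCL4 replicate 2. With 11.7% of all genes called, 0 calls in lists this short do not show that levels were equal. For all these lists the share of all genes called also moved with the library left out, as given above.

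The HACY replicates differed in opposite directions for hepatocyte and macrophage RNA. Log2 CPM of 9 of the 10 members was higher in HACY replicate 2 than in HACY replicate 1 (Apoa1 was not), as was that of 21 of 22 other secreted proteins, whereas 17 of 18 macrophage markers were lower in HACY replicate 2. Over all genes 6700 of 13428 were higher in HACY replicate 2. Apoe differed by 0.13 and Apoc1 by 0.31 in the direction of the hepatocyte-only mean (0.37), opposite to that of the macrophage markers (-0.40). The CCL4 pair did not repeat this. From CCL4 replicate 1 to 2, Apoe differed by 0.14 and Apoc1 by 0.22. The macrophage markers had no common direction, with 11 of 18 higher in CCL4 replicate 2 and a mean difference of 0.054. The hepatocyte-only mean differed by -0.045, with 5 of 8 genes higher in CCL4 replicate 2. The other secreted proteins differed by -0.061, with 8 of 22 higher. These values describe 2 libraries per group and were not tested.

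A list of 23 other genes was drawn from apolipoproteins by name, such as Apoo and Apol9a, and from lipoprotein-bound proteins. A place on lipoproteins was not shown here for each. Of the 23 genes, 18 were tested, and 8 rose and 0 fell (8.19% and 3.54% of all genes). Their median log2 fold change was 0.65. Fewer rose if either HACY library was left out, and a fall was called if CCL4 replicate 2 was. Apof, an inhibitor of lipid transfer in human plasma, had 98.2 and 129.7 CPM in HACY libraries, against 19.6 and 16.0 CPM in CCL4 libraries. Both HACY libraries were far above both CCL4 libraries, and this was a larger difference than in any of the 10 members (log2 2.68, SE 0.19, edgeR adjusted p = 0.000952). Pon1, an HDL-bound esterase, had 144.8 and 186.4 CPM in HACY libraries, against 57.5 and 45.4 CPM in CCL4 libraries (log2 1.69, edgeR adjusted p = 0.00274). Pltp, which transfers phospholipid between particles, had 39.6 and 32.4 CPM in HACY libraries, against 9.05 and 9.41 CPM in CCL4 libraries (log2 1.96, edgeR adjusted p = 0.00220). Apon rose by 1.98 on the log2 scale (edgeR adjusted p = 0.00980).

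**Figure D3:**
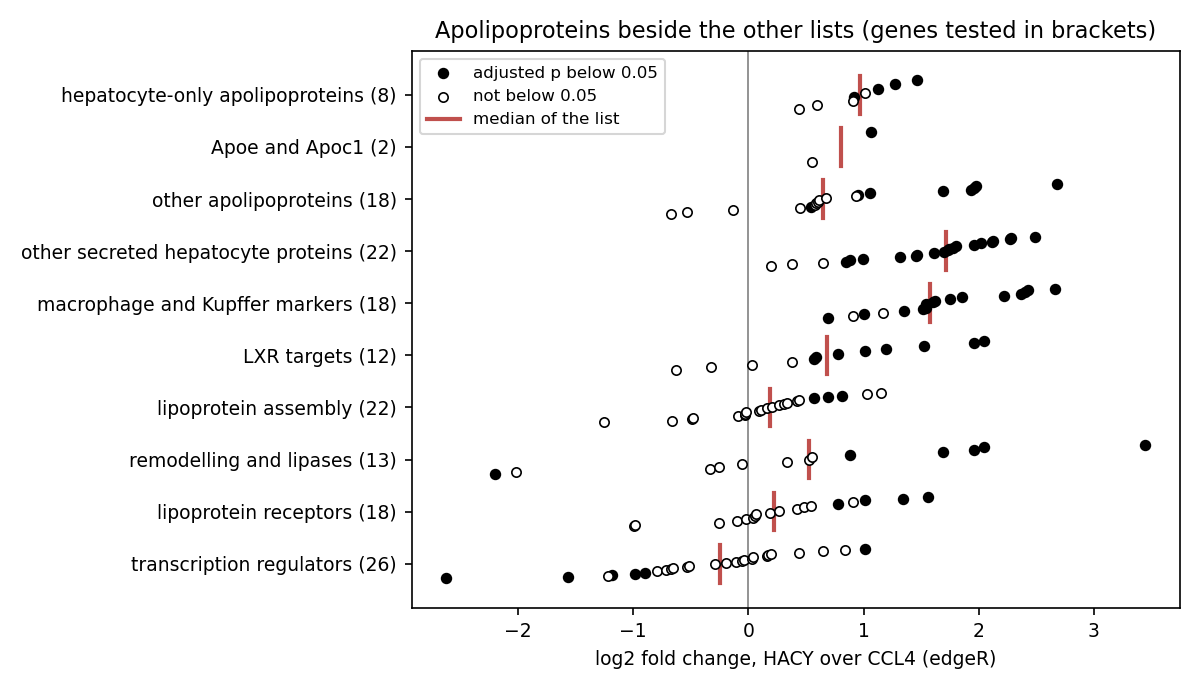
Log2 fold change of HACY over CCL4 for each tested gene (points) of the apolipoprotein members and the other gene lists, with called genes marked apart from uncalled ones and a bar at each list's median. The members lie between 0.44 and 1.46, below most of the other secreted hepatocyte proteins, whose median is 1.71.

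Of 22 genes that load, secrete or lipidate particles, 3 rose and 0 fell (8.19% and 3.54% of all genes), with a median log2 fold change of 0.19. Mttp, which transfers lipid onto Apob, had 69.8 and 99.8 CPM in HACY libraries, against 46.7 and 49.8 CPM in CCL4 libraries (log2 0.81, edgeR adjusted p = 0.0355). P4hb, the partner subunit of Mttp and a general disulfide isomerase, was higher by 0.69 (edgeR adjusted p = 0.0321), and Abca1, which lipidates Apoa1, by 0.57 (edgeR adjusted p = 0.0371). The 3 calls depended on which libraries were in the fit. Here and in the lists below, the share of all genes called also moved with the library left out, as given above. No gene was called with HACY replicate 2 left out (Mttp 0.53, P4hb 0.63, Abca1 0.59) or with CCL4 replicate 1 left out (Mttp 0.77, P4hb 0.51, Abca1 0.44). There was 1 call with HACY replicate 1 left out (P4hb at 0.74 and Abca1 at 0.54 were lost), 5 with CCL4 replicate 2 left out, and 1 with upper-quartile scaling. Tm6sf2, needed for lipid loading of VLDL, was higher by 1.15 but did not pass (edgeR adjusted p = 0.0565).

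Of 13 enzymes and inhibitors that remodel particles, 5 rose and 1 fell (8.19% and 3.54% of all genes), with a median log2 fold change of 0.52. Angptl8, a secreted protein that takes part in inhibiting lipoprotein lipase after feeding, was the gene that fell, with 46.6 and 38.6 CPM in HACY libraries, against 171.5 and 220.1 CPM in CCL4 libraries (log2 -2.20, SE 0.17, edgeR adjusted p = 0.00127). Lpl, the lipase itself and a gene that macrophages express, had 525.0 and 322.1 CPM in HACY libraries, against 88.9 and 116 CPM in CCL4 libraries (log2 2.05, edgeR adjusted p = 0.00436). Lcat, which Apoa1 activates, was higher by 0.88 (edgeR adjusted p = 0.0258), but not past the threshold with HACY replicate 2 (0.68) or CCL4 replicate 1 (0.78) left out, and was picked after its values were seen. The count of falls was 2 with CCL4 replicate 1 left out or with library size scaling.

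Receptors were called in 4 of 18 tested, all higher, where 8.19% of all genes rose and 3.54% fell, with a median log2 fold change of 0.23. The calls were led by the scavenger receptors Msr1 (1.56, edgeR adjusted p = 0.00416) and Cd36 (1.34, edgeR adjusted p = 0.00923). Stab1 (1.01, edgeR adjusted p = 0.0470) and Mylip (0.78, edgeR adjusted p = 0.0432), a ubiquitin ligase, missed the threshold in several other settings. Both were uncalled if HACY replicate 1 was left out (0.71 and 0.70) or CCL4 replicate 1 was (0.72 and 0.68), and Mylip also if HACY replicate 2 was (0.84). Dropping HACY replicate 1 left 2 receptors higher, and dropping CCL4 replicate 1 left 2 higher and 1 lower. Upper-quartile and library size scaling left 2 higher.

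Of 26 transcription regulators of apolipoprotein genes, 1 rose and 5 fell (8.19% and 3.54% of all genes), with a median log2 fold change of -0.24. Hnf4a, a central activator of hepatocyte apolipoprotein genes, had 78.3 and 142.5 CPM in HACY libraries, against 112.9 and 114.2 CPM in CCL4 libraries, with the HACY libraries on either side of both CCL4 libraries (log2 -0.04, edgeR adjusted p = 0.935). Cebpa, a hepatocyte differentiation factor, had 38.9 and 32.5 CPM in HACY libraries, against 66.5 and 66.3 CPM in CCL4 libraries (log2 -0.90, edgeR adjusted p = 0.0130, and -0.77 with 0.1005 without HACY replicate 2). Foxa2, a liver pioneer factor, had 24.8 and 32.5 CPM in HACY libraries, against 60.6 and 52.4 CPM in CCL4 libraries (log2 -0.98, edgeR adjusted p = 0.0185, and -0.80 with 0.113 without HACY replicate 1). Ppargc1a, a coactivator of fasting metabolism, had 1.69 and 2.16 CPM in HACY libraries, against 14.0 and 9.71 CPM in CCL4 libraries (log2 -2.62, edgeR adjusted p = 0.00446). Nr1h3, which encodes LXR alpha, was the gene that rose, with 70.5 and 61.0 CPM in HACY libraries, against 33.1 and 32.2 CPM in CCL4 libraries (log2 1.01, edgeR adjusted p = 0.00782, and 0.90 with 0.0555 without HACY replicate 1). Without HACY replicate 1 the list had 0 higher and 2 lower.

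Of 12 cholesterol-responsive targets of LXR, 8 rose and 0 fell (8.19% and 3.54% of all genes), with a median log2 fold change of 0.68. Among the genes that rose, Abca1, Mylip, Nr1h3, Pltp and Lpl were already counted in lists above. Abcg1, which exports cholesterol from macrophages, had 79.4 and 63.4 CPM in HACY libraries, against 23.6 and 25.9 CPM in CCL4 libraries (log2 1.53, edgeR adjusted p = 0.00305). Abcg1, Nr1h3, Pltp and Lpl had the smallest p-values of the list, and all 4 had a higher level in HACY replicate 1. Scd1 and Lpcat3, also called, were higher in HACY replicate 2, and over the list 5 of 12 genes were higher in that library. The source cells of these RNAs were not tested. The count was 4 if HACY replicate 1 or CCL4 replicate 1 was left out, 5 if HACY replicate 2 was, and 5 with upper-quartile or library size scaling. Apoe, itself a target of LXR in macrophages, was higher in HACY replicate 2.

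Genes flanking both clusters were read from the same fit. Within 100 kb of the Apoa1 cluster, 3 other genes were tested and 0 were called by edgeR, by which 11.7% of all genes were called in either direction. Sik3 (log2 0.00), Zpr1 (-0.09) and Bud13 (-0.09), which have no known place on lipoproteins, had edgeR adjusted p-values of 0.987, 0.680 and 0.757, while the 4 members between them were at 0.44 to 1.27. Around Apoe and Apoc1, 9 other genes were tested, and 2 rose and 0 fell (8.19% and 3.54% of all genes). Apoc4, another small C apolipoprotein, had 21.5 and 25.7 CPM in HACY libraries, against 11.3 and 13.1 CPM in CCL4 libraries (log2 0.95, edgeR adjusted p = 0.0272). An annotated readthrough gene, Apoc4-apoc2, overlaps both Apoc4 and Apoc2, so the counts of both are uncertain. Bcam, a laminin receptor, had 29.9 and 34.0 CPM in HACY libraries, against 15.2 and 18.6 CPM in CCL4 libraries (log2 0.92, edgeR adjusted p = 0.0249). Both calls were lost with HACY replicate 1 left out (1.07 and 1.00) and with HACY replicate 2 left out (0.82 and 0.82), and the call of Apoc4 also with CCL4 replicate 1 left out (0.85). Tomm40 (0.15), Nectin2 (0.21), Clptm1 (-0.02), Clasrp (-0.12), Relb (-0.39), Cblc (-0.91) and Apoc2 (0.93, on few counts) were not called.

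**Figure D4:**
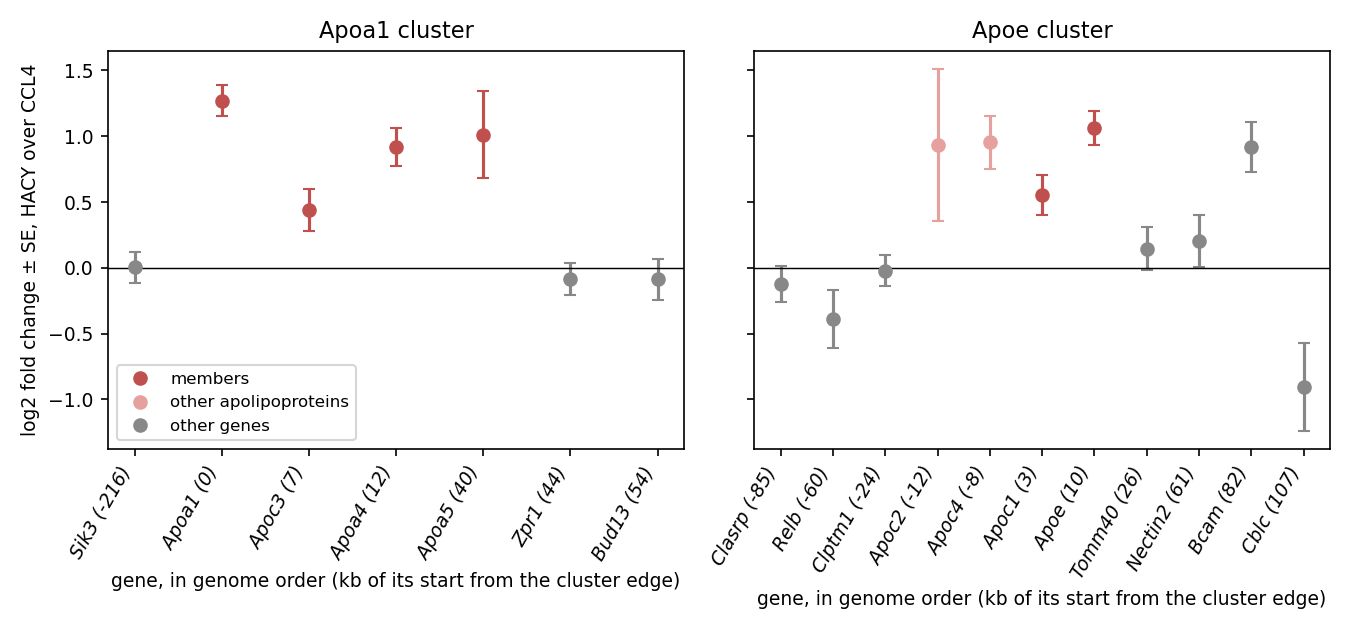
Log2 fold change of HACY over CCL4, with standard errors, of every tested gene near the Apoa1 and Apoe clusters, in genome order. Brackets give the distance in kb of each gene's start from the cluster's lowest coordinate, also for genes beyond the cluster's other end. The 4 members of the Apoa1 cluster lie at 0.44 to 1.27, between neighbours at -0.09 to 0.00, and beside Apoe and Apoc1 the genes Apoc4 and Bcam lie at 0.95 and 0.92.

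The genes whose profile over the 4 libraries was most like that of the hepatocyte-only mean were Gpt, Cyp4v3, Pipox, F2 and Mt2. Likeness was measured by Euclidean distance between centred log2 CPM profiles among the 10964 genes whose mean reached 5 CPM, and these 5 lay at distances of 0.0396 to 0.0925. Gpt encodes alanine aminotransferase and F2 prothrombin, and their log2 fold changes were 0.94 and 0.88. Nearest to Apoe lay Plekha2, Wdr41, Gm22, Actn1 and Tnfrsf14, at distances of 0.0600 to 0.0999, with log2 fold changes of 1.12 for Plekha2 and 0.98 for Actn1, an actin crosslinker. With 4 libraries many genes share a profile, so these names describe the values only.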

How the data were processed

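RNA from 2 HACY and 2 CCL4 samples was made into stranded paired-end mRNA libraries, per the labels' protocols. Sample titles gave the groups and replicate numbers. Each library has its own deposited table. Its count column holds the authors' raw reads per gene symbol, per the file headers. Its FPKM column holds the authors' values scaled to length and depth, also per the file headers. The submitters' processing notes name Trimmomatic, HISAT2, Cufflinks, HTSeq and DESeq and the build mm10. Annotation and strand setting: not given in the sources used here. Names of 27 rows had been turned into dates.

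The main test was the robust quasi-likelihood test of edgeR 4.0.16 (R 4.3.3), two-sided, with treatment alone in the model. Low genes were removed with filterByExpr, at a minimum count of 10 and a total of 15, and libraries were scaled by TMM. P-values were adjusted by Benjamini-Hochberg over all 13428 genes, with calls at 0.05, and members were read from this fit. Log2 CPM carry a prior count of 2. Standard errors are the log2 fold change over the square root of F, an approximation. The procedure was tested on simulated data. Other fits used RLE scaling, upper quartiles, library size alone, DESeq2 1.42.0, limma-voom (limma 3.58.1), no filter, a mean of at least 1 CPM, a replicate block, limma on log2(FPKM + 1) or log2(FPKM + 0.1), and 3 of the 4 libraries at a time, where a lone library is assumed to vary like the other group.

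Named genes were all 10 members, up to 4 genes of each other list with the smallest p, a few set genes such as Hnf4a and Mttp, all tested cluster neighbours and the 5 nearest profiles. A few tested genes that this rule names are not reported here. Further genes are named as picked after their values were seen. Members and lists were chosen with earlier results of these data known. Some genes, such as Alb, Ttr, Pltp, Pon1 and Lpl, are in several lists, so the counts of the lists are not separate. Replicates were no copies of each other, with a chi-square per degree of freedom of 19.01 between HACY and 34.0 between CCL4 libraries. The limit that a count of 0 allows is 3 counts, which is 0.155 to 0.162 CPM and covers counting error only.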

Additional observations from a re-analysis of the deposited data

How the results depend on the processing

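All 10 members kept a log2 fold change above 0 in all 15 alternatives. The number called higher was 5 with RLE, upper-quartile or library size scaling, limma-voom, the stricter filter and log2(FPKM + 1) or log2(FPKM + 0.1), 7 with no filter, 9 with DESeq2 and 0 on log2(FPKM + 1) with no filter, where edgeR was not used and limma called 1 gene higher and 0 lower of 16368. It was between 4 and 7 with each library left out. Over all genes, 1100 rose and 476 fell, a split that became 856 and 1355 with library size scaling, which moved the median log2 fold change of all genes to -0.18 and that of the members to 0.79, and 925 and 614 with upper-quartile scaling. DESeq2 gave 1350 and 733, log2(FPKM + 1) 647 and 637, and log2(FPKM + 0.1) 657 and 669, with the median of all genes at -0.11. Leaving out each library gave 530 to 1840 higher and 99 to 1207 lower. The hepatocyte-only mean against Apoe and Apoc1 was 0.15, and lay between 0.040 and 0.26 with each library left out. Summed counts, in which the most counted genes weigh most, gave -0.22. The causes were not tested. Same-numbered libraries did not deviate together (r = -0.0989 over genes), and with a replicate block 893 genes rose, 331 fell and 7 members were called, adding Apob and Apoc1 (edgeR adjusted p = 0.0291 and 0.0385). Depth limits Apoa5 most, at 114 to 271 counts per library.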

Other observations

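The Apoc2 locus read differently in the 2 units of the same tables. Apoc2, the activator of lipoprotein lipase, had 13 and 23 counts in HACY libraries, against 8 and 13 counts in CCL4 libraries. The overlapping readthrough gene listed as Apoc4-apoc2 had 0 counts in all 4 libraries, yet its FPKM was 71.1 and 107 in HACY libraries, against 36.1 and 37.9 in CCL4 libraries. Apoc4 had 393 and 453 counts in HACY libraries, against 223 and 265 counts in CCL4 libraries. The readthrough gene spans Apoc4 as well, so the differences given above for Apoc2 and Apoc4 are uncertain. A level of Apoc2 itself is therefore not read from the counts here.

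Serum amyloid A proteins ride on HDL in inflammation. Saa1 had 149 and 165 CPM in HACY libraries, against 97.8 and 117 CPM in CCL4 libraries (log2 0.55, edgeR adjusted p = 0.0466), and Saa3 had 48.6 and 46.4 CPM in HACY libraries, against 19.2 and 26.6 CPM in CCL4 libraries (log2 1.05, edgeR adjusted p = 0.0181). The call of Saa1 was lost with HACY replicate 1 (0.61), HACY replicate 2 (0.47) or CCL4 replicate 1 (0.43) left out, and that of Saa3 with HACY replicate 1 left out (1.01). Saa4 had 22.0 and 30.6 CPM in HACY libraries, against 49.2 and 26.9 CPM in CCL4 libraries, with overlapping groups. Saa1 and its near-identical copy Saa2 may share reads and are uncertain. These 3 genes were picked after their values were seen.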
